A study of Homo sapiens with 22 samples.

Results

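The genes described are 10 secreted or shed chemokines of inflammation, CXCL1, CXCL2, CXCL3, CXCL5, CXCL6, CXCL8, CXCL16, CCL2, CCL5 and CCL20, found by symbol among the 26485 symbols counted in each of 22 RNA-seq libraries. Of the 10, 8 could be tested in at least 1 comparison, and CXCL5 and CXCL6 passed the low-count filter in none.

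All 22 libraries were labelled as wild-type MDA-MB231, an established triple-negative breast cancer line of epithelial origin, from a study of HDAC6, a cytoplasmic deacetylase. Vehicle-treated cells (Ctrl, 2 libraries, labelled DMSO and day 2) were the controls of Nexturastat A (2 libraries, 7.65 uM, day 2). A separate vehicle group (DMSO, 3 libraries, day 2) was the control of HPOB (3 libraries, day 2) and of Tubastatin A (3 libraries, day 2), whose doses no label used here gives. The hairpin groups were a control hairpin (shCtrl) and hairpins against HDAC6 (shHDAC6-1 and shHDAC6-2), with 3 libraries each at day 0. The sample titles abbreviate Tubastatin A as TSA, which is also an abbreviation of trichostatin A, and the treatment label was followed here. All 3 compounds are hydroxamic acids known as HDAC6-selective inhibitors. Nothing in the labels says that replicates were separate cultures, so each p-value measures the spread between these libraries, which may be technical.

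The libraries held 31.2 to 85.9 M counts, so that 3 counts, the upper limit that a count of 0 allows, were 0.0349 to 0.096 CPM (a gene's counts per M counts of its library). The limit is 6 counts, or 0.0698 to 0.192 CPM, if both mates of a read pair were counted, as the counting intervals given here assume. None of the 20 replicate pairs held the same values. Replicate 3 of the hairpin groups stood apart from replicates 1 and 2. There were 812 to 1885 units of chi-square per degree of freedom between them, against 12.7 to 38.4 between replicates 1 and 2. Replicate 3 was described alone, a split proposed with results of these data known. Tubastatin A replicate 2 stood apart from its group to a smaller degree (75.6 and 84.1 against 9.61 between the others). The 3 HPOB libraries all differed from each other (43.7 to 53.3, against 4.42 to 5.47 in DMSO), and the Nexturastat A pair differed more than the Ctrl pair. AXL, a kinase gene high in this line, was at 834 CPM in HPOB replicate 3 and 682 CPM in Tubastatin A replicate 2, against 1380 to 1620 CPM in the other libraries of that experiment. The summed level of 8 genes known to be high in MDA-MB231 was 5490 to 5600 CPM in DMSO, 5510 CPM in Ctrl and 5360 CPM in shCtrl replicate 3, but 1220 to 1270 CPM in shCtrl replicates 1 and 2. CDKN2A, which is known to be deleted in this line, had no counts in Ctrl, DMSO, HPOB, Tubastatin A or shCtrl replicate 3. It was at 150 and 152 CPM in shCtrl replicates 1 and 2, and at 7.11 and 24.1 CPM in replicate 3 of shHDAC6-1 and shHDAC6-2. Replicates 1 and 2 of the hairpin groups thus went against the cell line's label at these markers. Replicate 3 of shHDAC6-1 and shHDAC6-2 did so at CDKN2A, unlike shCtrl replicate 3. CAV1, 1 of the 8 genes, was at 97.8 and 134 CPM there against 872 CPM in shCtrl replicate 3, though the sum of the 8 was 5110 and 4990 CPM. Results on all these libraries are on the libraries so labelled. HDAC6 itself was at 47.8 and 54.6 CPM in shCtrl replicates 1 and 2, against 12.6 and 11.8 CPM with shHDAC6-1 and 12.2 and 13.6 CPM with shHDAC6-2, and in replicate 3 at 24.9, 9.2 and 11.6 CPM in the same order.

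Chemokines are small proteins that draw leukocytes along a gradient by binding G protein-coupled receptors. CXCL1, CXCL2, CXCL3, CXCL5, CXCL6 and CXCL8 (interleukin 8) carry an ELR motif, bind CXCR2 (CXCL6 and CXCL8 also CXCR1) and attract neutrophils. CCL2 attracts monocytes through CCR2, CCL5 attracts T cells and monocytes, and CCL20 is the ligand of CCR6. CXCL16 is made as a membrane protein, binds CXCR6 and is released by shedding. In epithelial tumour cells several of these genes are targets of NF-kB and AP-1 and are induced by interleukin 1 and TNF, and their mRNAs are short-lived.

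The proximal promoters of the members are shown because the neutrophil-attracting members share 1 letter sequence there. RefSeq promoter windows (GRCh38.p14; 250 bases before the RefSeq start and 50 after) matched 7 of the 10 members, CXCL1, CXCL2, CXCL3, CXCL5, CXCL6, CXCL8 and CCL20. The last 150 bases before the start are printed on the strand of the gene, 5′ to 3′, with the matches of GGAATTTCC (a form of the NF-kB site) and of TGANTCA (the AP-1 site) in capitals. They lie on chromosome 4 at chr4:73740419-73740568 (+) for CXCL8, chr4:73869243-73869392 (+) for CXCL1, chr4:74099196-74099345 (-) for CXCL2, chr4:74038690-74038839 (-) for CXCL3 and chr4:73998678-73998827 (-) for CXCL5, and on chromosome 2 at chr2:227813692-227813841 (+) for CCL20.
CXCL8: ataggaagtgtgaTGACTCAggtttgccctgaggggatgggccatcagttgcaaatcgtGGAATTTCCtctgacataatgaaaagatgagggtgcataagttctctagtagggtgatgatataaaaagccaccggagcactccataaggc
CXCL1: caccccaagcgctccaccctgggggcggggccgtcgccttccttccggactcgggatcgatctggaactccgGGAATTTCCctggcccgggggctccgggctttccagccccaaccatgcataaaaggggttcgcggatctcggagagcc
CXCL2: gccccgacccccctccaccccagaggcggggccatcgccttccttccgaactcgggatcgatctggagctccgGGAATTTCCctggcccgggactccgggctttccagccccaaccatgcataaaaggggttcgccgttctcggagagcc
CXCL3: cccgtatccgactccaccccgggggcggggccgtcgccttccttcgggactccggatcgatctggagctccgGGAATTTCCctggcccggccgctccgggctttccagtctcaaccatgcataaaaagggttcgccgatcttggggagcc
CXCL5: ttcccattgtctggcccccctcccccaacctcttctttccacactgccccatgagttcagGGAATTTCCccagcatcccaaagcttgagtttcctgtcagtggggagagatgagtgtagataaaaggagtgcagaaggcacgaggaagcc
CCL20: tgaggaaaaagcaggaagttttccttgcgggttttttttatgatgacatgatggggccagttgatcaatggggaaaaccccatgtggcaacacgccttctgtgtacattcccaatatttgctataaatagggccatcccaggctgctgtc

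GGAATTTCC, searched on both strands of the 300-base windows, was present once in 6 of the 7 windows, those of the 6 ELR members, against 0.461% of all 35116 RefSeq promoter windows. It began at -78 in CXCL1 and CXCL3, -77 in CXCL2, -90 in CXCL5, -89 in CXCL6 and -91 in CXCL8, counted from the base before the start as -1. The looser GGNNNTTCC, which includes every GGAATTTCC, was in all 7 windows and in 20.1% of all windows, and the CCL20 match read GGAAAACCC on the strand shown. CXCL1, CXCL2 and CXCL3 each had a further looser match, GGGCTTTCC, beginning at -53. TGANTCA was found in CXCL8, from -137 to -131, and in 7.71% of all windows. TATAAA was found in CXCL8 and CCL20, beginning at -31 and -29, against 11.5% of all windows, and the GC box GGGCGG in CXCL1, CXCL3 and CXCL6, against 45%. The windows of CXCL1 and CXCL3 were 82.5% identical and those of CXCL5 and CXCL6 83.1%, whereas CXCL8 shared 43.1% with CXCL1. These matches describe letters in a window and do not show that a factor binds there.

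**Figure D1:**
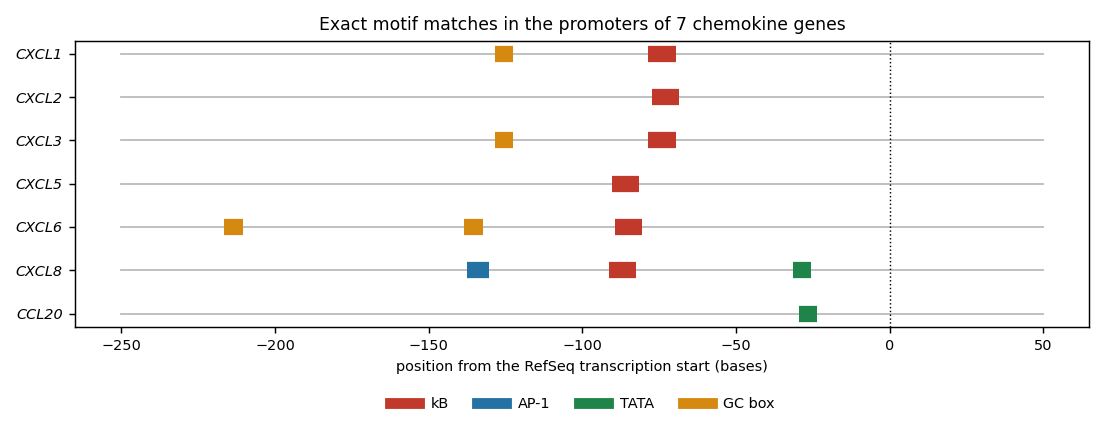
Matches of 4 of the motifs spelled out above (kB for the NF-kB letters, AP-1, TATA and GC box, without the looser form) in the promoter windows of the 7 members with a RefSeq entry, with 1 row per gene and the distance from the start in bases on the horizontal axis. GGAATTTCC stands between -91 and -69 in the 6 neutrophil-attracting members, and TGANTCA in CXCL8 alone among the 7.

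The 6 ELR members lie within 358.8 kb of chromosome 4 (73740506 to 74099293, GRCh38, GENCODE 29), in the order CXCL8, CXCL6, CXCL1, CXCL5, CXCL3 and CXCL2. CXCL16 (17:4733526-4739922, -), CCL2 (17:34255218-34257203, +) and CCL5 (17:35871491-35880793, -) lie on chromosome 17 and CCL20 (2:227805739-227817564, +) on chromosome 2. CXCL16 overlaps MED11 and CCL5 overlaps AC015849.1 on the opposite strand, and, with the strandedness of counting not given in the sources used here, reads of these pairs may not be told apart. CXCL6 overlaps PPBPP1 on the same strand. CXCL1, CXCL2 and CXCL3 are close paralogs: 5.7% of the 50-base windows of the CXCL1 transcript were also in a CXCL2 transcript, and no window of 100 bases was shared, so that a small part of their reads may be split or lost.

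CXCL8 was the highest member per kilobase of transcript in all 4 kinds of control library, and the order of the others differed between them. In Ctrl, CXCL8 stood at 22.5 CPM per kb, followed by CXCL1 (3.44), CXCL16 (2.58), CXCL2 (2.02), CXCL3 (1.11), CCL20 (0.519), CCL2 (0.132) and CCL5 (0.054). In DMSO the order was CXCL8 (44.4 CPM per kb), CXCL2 (9.78), CXCL1 (5.74), CXCL16 (1.87), CCL2 (1.18), CXCL3 (1.06), CCL5 (0.538) and CCL20 (0.122). CCL5, the lowest of the 8 in Ctrl, was the second member in shCtrl replicates 1 and 2 (4.09 CPM per kb, after CXCL8 at 14.0), and was at 0.927 CPM per kb in shCtrl replicate 3. Neighbours that exchanged places when the median transcript length was used in place of the longest were CXCL16 and CXCL2 in Ctrl, CCL2 and CXCL3 in DMSO, CCL5 and CXCL2 as well as CCL2 and CXCL3 in shCtrl replicates 1 and 2, and CXCL1 and CXCL2 as well as CCL20 and CXCL3 in shCtrl replicate 3. CXCL5 had at most 8 counts and CXCL6 at most 2 counts in any of the 22 libraries, and both had none in Ctrl and DMSO.

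CXCL8 was at 34.6 and 42.3 CPM in Ctrl, at 78.2, 76.1 and 72.7 CPM in DMSO, at 30.1 and 17.7 CPM in shCtrl replicates 1 and 2 and at 35.3 CPM in shCtrl replicate 3. Thus all 3 DMSO libraries were above all other controls. CXCL2 was at 2.57 and 2.34 CPM in Ctrl, 12.4, 11.2 and 12.1 CPM in DMSO, and 4.87, 3.94 and 2.56 CPM in the 3 shCtrl libraries. CCL5 was at 0.0498 and 0.0975 CPM in Ctrl (3 and 6 counts), 0.651, 0.91 and 0.64 CPM in DMSO and 6.08, 5.09 and 1.26 CPM in shCtrl, so that the 3 kinds of control did not overlap. CCL20 ran the other way between the vehicle groups, at 0.465 and 0.406 CPM in Ctrl and 0.136, 0.107 and 0.064 CPM in DMSO.

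By edgeR's quasi-likelihood test with Benjamini-Hochberg adjustment over all genes, 7 of 8 members differed between DMSO and Ctrl, where 62.9% of all tested genes did, 30.6% higher and 32.3% lower. Higher in DMSO were CXCL2 (log2 difference 2.27 ± 0.18 SE, adjusted p = 2.79e-09), CCL5 (3.26 ± 0.49, 9.9e-06), CCL2 (3.12 ± 0.54, 5.13e-05), CXCL8 (0.97 ± 0.15, 1.15e-05) and CXCL1 (0.72 ± 0.26, 0.0193). Lower in DMSO were CCL20 (-2.05 ± 0.61, adjusted p = 0.00634 in the same edgeR fit) and CXCL16 (-0.47, 0.047), while CXCL3 was at -0.07. The CXCL1 and CXCL16 calls were each lost without Ctrl replicate 1, Ctrl replicate 2 or DMSO replicate 3 (edgeR adjusted p = 0.0594 to 0.114 for CXCL1 and 0.0899 to 0.194 for CXCL16), and that of CXCL16 also with DESeq2's size factors (0.0597) and by DESeq2 (0.101). Between shCtrl replicates 1 and 2 and Ctrl, 6 of 8 members differed, where 76.5% of all genes did (41.5% higher, 34.9% lower), with CCL5 higher by 6.02, CCL2 by 2.86, CCL20 by 1.56 and CXCL2 by 0.67 on the log2 scale, and CXCL1 (-1.06) and CXCL8 (-0.86) lower. The CCL20 call of that comparison was lost without Ctrl replicate 2 (edgeR adjusted p = 0.0547) and without shCtrl replicate 1 (0.177). In this fit of the control groups CCL2 and CCL5 passed the low-count filter only through DMSO and shCtrl libraries. CCL20 passed it only through Ctrl and shCtrl libraries. The places of CCL2 and CCL5 in the counts against Ctrl, and of CCL20 in those with DMSO, are thus not independent of their differences. Against DMSO, 5 members differed in shCtrl replicates 1 and 2 (background 77.2%, with 42.5% higher and 34.7% lower), CCL20 (3.61) and CCL5 (2.76) higher and CXCL8 (-1.83), CXCL1 (-1.78) and CXCL2 (-1.60) lower. The control groups came from separate experiments. Ctrl and DMSO are both labelled day 2, and between them experiment and cell stock cannot be told apart. In the comparisons with shCtrl, labelled day 0, the day cannot be told apart from these either. Each treatment below is therefore set against its own control.

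**Figure D2:**
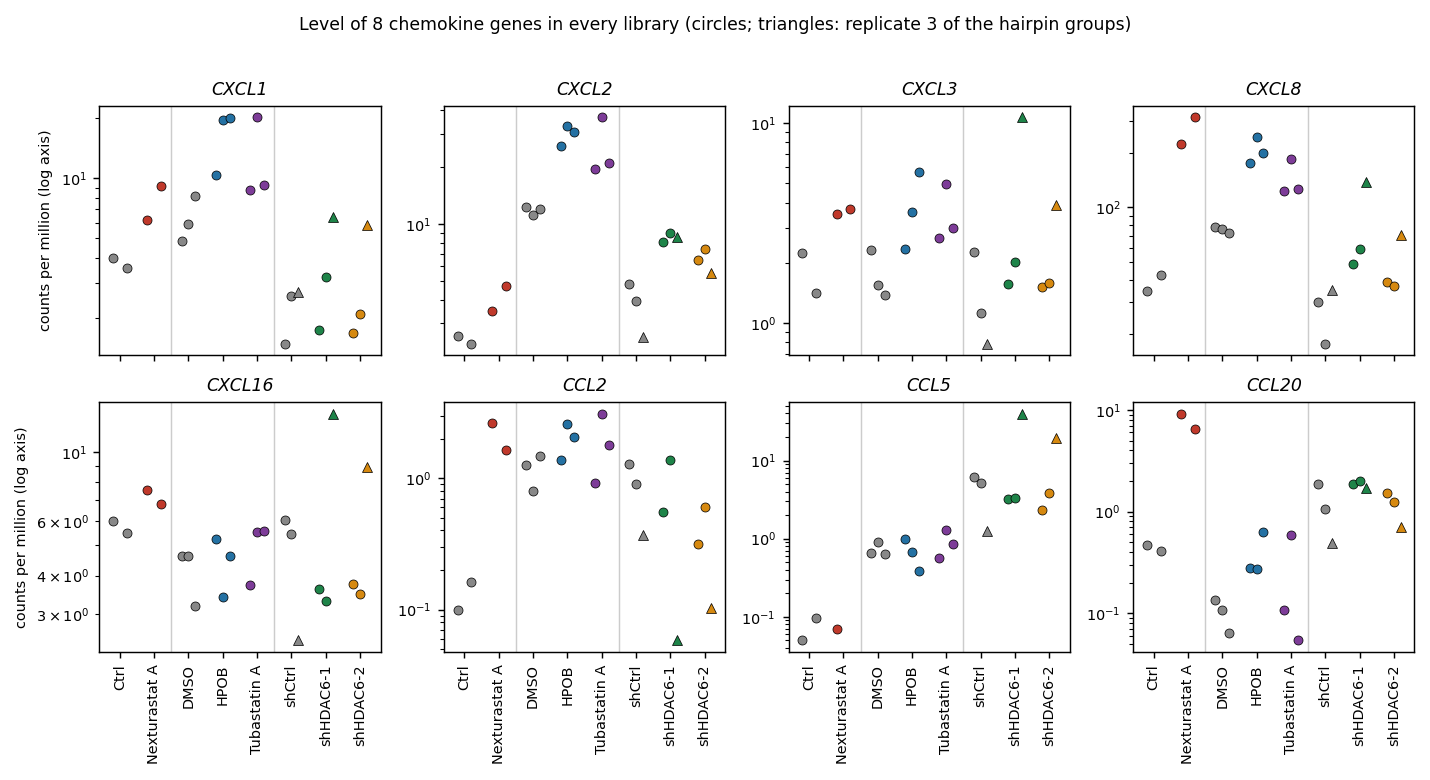
Level of 8 members in each of the 22 libraries, in CPM on a log axis, with 1 panel per gene and 1 point per library grouped by treatment (triangles for hairpin replicate 3). CXCL8 in Nexturastat A replicate 2 (315 CPM) and CCL5 in replicate 3 of shHDAC6-1 (39.8 CPM) are the highest points of their panels. CXCL8 in Nexturastat A replicate 1 (225 CPM) lies below HPOB replicate 2 (245 CPM). CCL5 in Nexturastat A replicate 2 is at 0 and not drawn, and CXCL5 and CXCL6 are left out.

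With Nexturastat A, CXCL8, CCL20, CCL2 and CXCL1 rose, 4 of the 7 members tested, where 36.6% of all 16678 tested genes changed, 21.1% rising and 15.5% falling. No member fell. CXCL8 was at 225 and 315 CPM (270.0 ± 63.7, mean ± SD, n = 2) against 34.6 and 42.3 CPM in Ctrl, the largest gain in CPM among the members. CCL20, which attracts CCR6-bearing lymphocytes and dendritic cells, was at 9.19 and 6.45 CPM against 0.465 and 0.406 CPM. CCL2 was at 2.62 and 1.65 CPM against 0.0997 and 0.162 CPM (6 and 10 counts). In each of these genes both treated libraries lay above both controls. CCL2 passed the low-count filter only through its treated libraries, so its place in the 4 of 7 is not independent of its rise.

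The log2 fold change with Nexturastat A was 2.72 ± 0.20 (SE) for CXCL8, a 6.61-fold change (95% confidence interval 2.24 to 3.21 on the log2 scale, edgeR quasi-likelihood adjusted p = 0.000509). It was 4.07 ± 0.32 for CCL20, 16.8-fold (3.32 to 4.82, edgeR adjusted p = 0.000599), and 3.91 ± 0.50 for CCL2, 15-fold (2.73 to 5.09, 0.0026). CXCL1, at 6.21 and 9.13 CPM against 3.97 and 3.57 CPM, changed by 0.93 ± 0.26 (edgeR adjusted p = 0.0304). The CXCL1 call was lost without Ctrl replicate 1 (edgeR adjusted p = 0.156) or Ctrl replicate 2 (0.207) and with trends over GC and length removed (log2 fold change 0.32, 0.39). The other ELR members were also higher in both treated libraries but did not pass the main test: CXCL3 was at 3.5 and 3.71 against 2.24 and 1.41 CPM (log2 fold change 0.89 ± 0.31, edgeR adjusted p = 0.0618) and CXCL2 at 3.5 and 4.72 against 2.57 and 2.34 CPM (0.65 ± 0.27, 0.101). CXCL3 was called by DESeq2 (adjusted p = 0.049), with the replicate number as a block (edgeR, 0.044) and without Nexturastat A replicate 1 (0.0476), and CXCL2 without that library as well (0.024). CXCL16 was at 7.52 and 6.79 against 5.98 and 5.49 CPM (0.23 ± 0.21, edgeR adjusted p = 0.418).

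In all 7 tested members both treated libraries were above both controls, and 43.9% of all tested genes showed the same. CCL2 is among the 7 only because its treated libraries passed the low-count filter. CCL5, CXCL5 and CXCL6, low in both groups, were left out by that filter. The median log2 fold change was 0.93 over the 7 and 0.03 over all genes. CCL5 was not tested: it had 4 counts in one Nexturastat A library and none in the other, against 3 and 6 in Ctrl, a pooled ratio of 0.461 (95% counting interval 0.0469 to 3.62). Bulk RNA of this kind cannot tell fewer cells expressing a gene from less RNA per cell, here or in the comparisons that follow. The marker lists of other cell types moved with the treatment: the summed level of 7 fibroblast and endothelial markers was 69.5 to 73.5 CPM in Nexturastat A against 26.6 to 29.9 in Ctrl, and that of 11 leukocyte markers, mostly CD68, 142 to 156 against 170 to 189 CPM, and their part in the result was not tested.

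With HPOB, CXCL8 rose and was 1 of only 4 genes called among 15338 tested (0.0261%). It was at 175, 245 and 199 CPM (206 ± 35.4, n = 3) against 78.2, 76.1 and 72.7 CPM in DMSO (75.7 ± 2.79, n = 3), a log2 fold change of 1.44 ± 0.16 (95% interval 1.09 to 1.79, edgeR adjusted p = 0.0109). CXCL2 was at 26.1, 33.0 and 30.9 CPM against 12.4, 11.2 and 12.1 CPM (1.33 ± 0.21, edgeR adjusted p = 0.0604). CXCL1 was at 10.4, 19.6 and 20.2 against 4.83, 5.89 and 8.16 CPM (1.41 ± 0.34, 0.2), and CXCL3 at 2.34, 3.61 and 5.72 against 2.31, 1.55 and 1.38 CPM (1.15 ± 0.35, 0.361). In these 4 neutrophil chemokines the lowest HPOB library lay above the highest DMSO library, though for CXCL3 by 2.34 against 2.31 CPM.

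CCL20 was low in both groups, at 0.28, 0.275 and 0.635 CPM with HPOB against 0.136, 0.107 and 0.064 CPM, again without overlap (log2 fold change 1.92 ± 0.85, edgeR adjusted p = 0.477). So 5 of the 8 tested members were higher in every HPOB library, where 11.4% of all genes were. CCL20, at 5, 4 and 2 counts in DMSO, passed the low-count filter only through treated libraries. Its place among the 5 and in the median below is thus not independent of its rise. CCL2 (0.77), CXCL16 (0.08) and CCL5 (-0.12) overlapped between the groups. The median over the 8 members was 1.24 against 0.01 over all genes. The CXCL8 call did not hold when any 1 DMSO library was left out (log2 fold change 1.41 to 1.47, edgeR adjusted p = 0.0828 to 0.151) or when HPOB replicate 2 was (1.3, 0.0974). CXCL2 was called by DESeq2 (adjusted p = 1.4e-06) and, without Tubastatin A replicate 2, which enters the shared spread, by edgeR (adjusted p = 4.37e-05), as was CXCL1 (0.0325). With both libraries low in AXL left out, a setting chosen after seeing the data, edgeR called CXCL2 (1.3, adjusted p = 0.00031) and CXCL8 (1.47, 4.69e-05).

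With Tubastatin A no gene was called by edgeR (0% of 15338, with 757 at an unadjusted p under 0.05, and 18 called by DESeq2). The values of the neutrophil chemokines were nonetheless above DMSO in each library. CXCL8 was at 124, 185 and 126 CPM (145 ± 35.0, n = 3), a log2 fold change of 0.93 ± 0.16 (95% interval 0.59 to 1.28, edgeR adjusted p = 0.446), and DESeq2 called it (0.92, adjusted p = 0.000247). CXCL2 was at 19.6, 36.9 and 21.2 CPM (1.12 ± 0.20, edgeR adjusted p = 0.447), and DESeq2 called it too (1.10, 0.000724). CXCL1 was at 8.7, 20.3 and 9.23 CPM (1.02 ± 0.34, edgeR adjusted p = 0.857) and CXCL3 at 2.66, 4.97 and 3.0 CPM (1.01 ± 0.35, 0.857). Replicate 2, the library that stands apart, was the highest of the 3 for all 4 genes, but both others also lay above every DMSO library. With both libraries low in AXL left out the log2 fold changes were 0.71 for CXCL8, 0.76 for CXCL2, 0.50 for CXCL1 and 0.68 for CXCL3, with no member called.

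These 4 of 8 members did not overlap with DMSO, against 9.79% of all genes. CCL20 was at 0.108, 0.582 and 0.054 CPM, CCL2 at 0.921, 3.1 and 1.78 CPM, CCL5 at 0.569, 1.31 and 0.864 CPM and CXCL16 at 3.74, 5.53 and 5.56 CPM, all overlapping with DMSO. The median log2 fold change of the 8 was 0.97 against 0.01 over all genes. HPOB and Tubastatin A share their DMSO libraries, so the likeness of their values is partly that of a shared control.

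HPOB and Tubastatin A were also compared directly, at the same day but with doses that the labels used here do not give. No gene differed (0% by edgeR, 0 by DESeq2, 481 at an unadjusted p under 0.05), and all 8 members overlapped. For CXCL8 the difference, Tubastatin A minus HPOB, was -0.51 on the log2 scale (95% interval -0.85 to -0.17, edgeR adjusted p = 0.996), for CXCL2 -0.21 (-0.64 to 0.22), for CXCL1 -0.39 (-1.09 to 0.31) and for CXCL3 -0.14 (-0.86 to 0.58). These intervals do not show that the compounds act alike.

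Nexturastat A was set against the others as a difference of effects, each taken against its own vehicle, without matched doses. The effect on CXCL8 was larger with Nexturastat A than with HPOB by 1.33 ± 0.27 on the log2 scale (95% interval 0.76 to 1.90, edgeR adjusted p = 0.00332) and than with Tubastatin A by 1.85 ± 0.27 (1.28 to 2.43, 0.000262). For CCL2 the difference was 3.18 ± 0.74 against HPOB (edgeR adjusted p = 0.00833) and 3.24 ± 0.74 against Tubastatin A (0.00705), and neither was called without Ctrl replicate 1 (0.0577 and 0.0514). For CCL20 it was 2.19 against HPOB (edgeR adjusted p = 0.152) and 2.86 against Tubastatin A (0.0655). Thus 2 of the 8 members were called in each of these comparisons, where 17.5% and 19.1% of all genes were. Both were called in the direction of a larger effect with Nexturastat A, as were 9.81% and 10.6% of all genes. CXCL1, CXCL2 and CXCL3 were called in neither comparison.

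**Figure D3:**
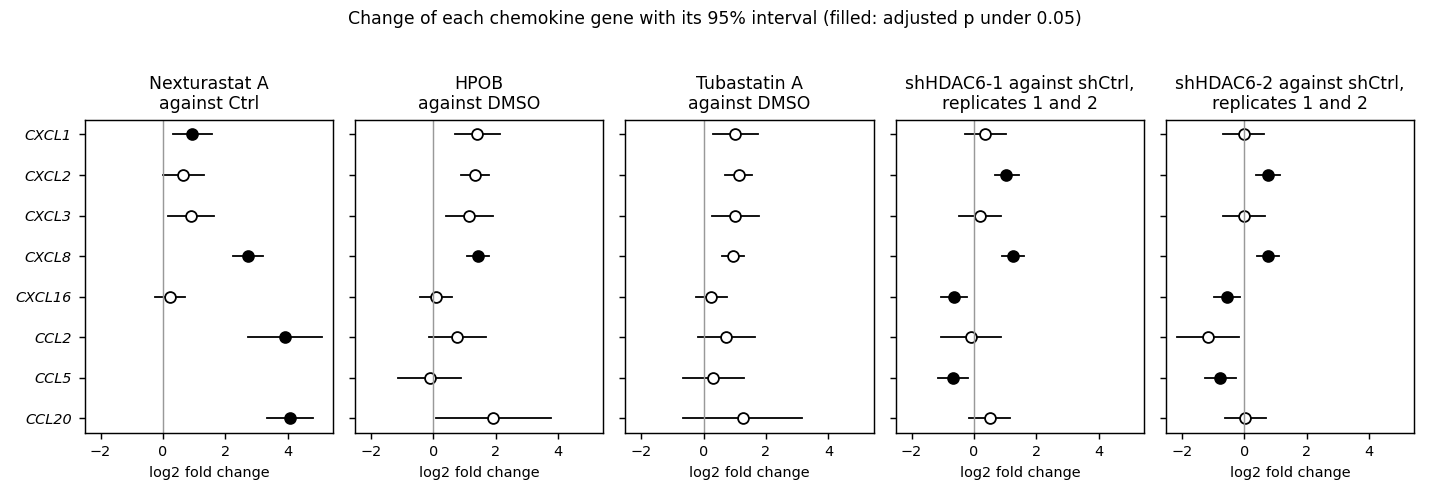
Log2 fold change of each tested member against its own control for the 3 inhibitors and for both hairpins in replicates 1 and 2, with 95% confidence intervals as bars and filled points for called genes. The points of CCL20 (4.07), CCL2 (3.91) and CXCL8 (2.72) with Nexturastat A lie farthest to the right, and CXCL8 lies above 0 in all 5 comparisons.

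With the HDAC6 hairpins in replicates 1 and 2, CXCL2 and CXCL8 rose while CXCL16 and CCL5 fell, with either hairpin. These were 4 of 8 members tested for each, where 30.5% (shHDAC6-1) and 27.6% (shHDAC6-2) of 17702 genes were called. Of all genes 15.3% rose and 15.2% fell with shHDAC6-1, and 14.4% rose and 13.2% fell with shHDAC6-2. CXCL8 was at 49.0 and 58.9 CPM with shHDAC6-1 and 39.0 and 37.1 CPM with shHDAC6-2, against 30.1 and 17.7 CPM in shCtrl. CXCL2 was at 8.09 and 9.06 CPM and at 6.47 and 7.41 CPM, against 4.87 and 3.94 CPM. CXCL16 was at 3.63 and 3.3 CPM and at 3.75 and 3.49 CPM, against 6.05 and 5.44 CPM. CCL5 was at 3.24 and 3.34 CPM and at 2.3 and 3.83 CPM, against 6.08 and 5.09 CPM. For these 4 genes the hairpin and control libraries did not overlap with either hairpin.

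The log2 fold change of CXCL8 was 1.26 ± 0.17 with shHDAC6-1 (95% interval 0.90 to 1.61, edgeR adjusted p = 7.86e-06) and 0.77 ± 0.17 with shHDAC6-2 (0.00149), and that of CXCL2 1.04 ± 0.19 (edgeR adjusted p = 0.000173) and 0.75 ± 0.19 (0.00379). CXCL16 changed by -0.65 ± 0.20 (edgeR adjusted p = 0.0178) and -0.57 ± 0.20 (0.037), and CCL5 by -0.68 ± 0.24 (0.0307) and -0.77 ± 0.23 (0.0171). The calls of CXCL2 and CXCL8 held without any 1 library. Those of CXCL16 and CCL5 with shHDAC6-1 did not hold without shCtrl replicate 1, shHDAC6-1 replicate 1 or shHDAC6-1 replicate 2. With shHDAC6-2, CXCL16 was lost without any 1 of the 4 libraries (edgeR adjusted p = 0.0511 to 0.145) and CCL5 without shCtrl replicate 1 (0.0669) or shHDAC6-2 replicate 1 (0.251).

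CXCL1 (0.36 with shHDAC6-1 and -0.01 with shHDAC6-2), CXCL3 (0.18 and -0.02) and CCL20 (0.50 and 0.02) did not pass the test with either hairpin. CCL2 was at 0.55 and 1.37 CPM and at 0.315 and 0.604 CPM against 1.29 and 0.904 CPM (-0.10, and -1.15 ± 0.48 with edgeR adjusted p = 0.0788). The latter was called without a filter (edgeR adjusted p = 0.0337) and without shCtrl replicate 2, shHDAC6-2 replicate 2 or either shHDAC6-1 library (0.0191 to 0.047), always lower. With shHDAC6-1, 3 members were higher in both libraries (25.8% of all genes were) and 2 lower (39.8%). CCL20, counted among the 3, was at 1.86 CPM to 3 digits in both shHDAC6-1 replicate 1 and shCtrl replicate 1. With shHDAC6-2, 2 were higher (23.0%) and 3 lower (37.4%). The median over the 8 members was 0.27 with shHDAC6-1 and -0.02 with shHDAC6-2, against -0.02 and 0 over all genes. HDAC6 fell by 1.99 and 1.90 on the log2 scale with the first and second hairpin, so its reduction was of like size. Between the hairpins no gene was called (0%, with 1107 at an unadjusted p under 0.05 and 0 by DESeq2), CXCL8 differing by -0.48 (shHDAC6-2 minus shHDAC6-1, 95% interval -0.83 to -0.14, edgeR adjusted p = 0.775).

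In replicate 3, a single library per group with no replicate check, 7 of 8 members were more than 2-fold higher with shHDAC6-1 than in shCtrl, where 25.7% of all genes were. With shHDAC6-2 5 of 8 were, against 24.0%. CXCL8 was at 138 and 70.1 CPM against 35.3 CPM, a ratio of 3.92 with shHDAC6-1 (95% counting interval 3.68 to 4.18) and 1.99 with shHDAC6-2 (1.85 to 2.14). CXCL2 was at 8.59 and 5.54 against 2.56 CPM (3.35 and 2.16), and CXCL1 at 6.43 and 5.87 against 2.68 CPM (2.40 and 2.19). CXCL8, CXCL2 and, by ratio, CXCL1 were higher with both hairpins in this replicate, and CXCL8 and CXCL2 also in replicates 1 and 2.

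CCL5 and CXCL16, which fell in replicates 1 and 2, were higher in replicate 3. CCL5 was at 39.8 and 19.3 CPM against 1.26 CPM, a ratio of 31.4 (23.1 to 44.0) with shHDAC6-1 and 15.3 (11.1 to 21.5) with shHDAC6-2, where replicates 1 and 2 gave 0.532 and 0.655, and 0.378 and 0.753. CXCL16 was at 13.3 and 8.96 against 2.47 CPM, a ratio of 5.39 (4.26 to 6.9) and 3.63 (2.82 to 4.73), where replicates 1 and 2 gave 0.601 and 0.607, and 0.619 and 0.642. CXCL3 was at 10.7 and 3.91 against 0.787 CPM (13.6 and 4.96), and CCL20 at 1.71 and 0.713 against 0.494 CPM (3.47, and 1.44 with an interval of 0.718 to 2.96). CCL2 was the 1 member more than 2-fold lower with each hairpin, where 36.8% and 36.4% of all genes were, at 0.0582 and 0.102 against 0.37 CPM, a ratio of 0.157 (0.0137 to 0.565) with shHDAC6-1, where it had 5 counts against 24, and of 0.275 (0.0498 to 1.02) with shHDAC6-2, with 6 counts. HDAC6 was lower in this replicate as well, at ratios of 0.370 and 0.465. CDKN2A, at 0 in shCtrl replicate 3, was at 7.11 and 24.1 CPM with the hairpins. The part of that difference between libraries in the ratios was not tested. An edgeR fit to all 9 hairpin libraries called no gene, with 191 and 219 at an unadjusted p under 0.05 for shHDAC6-1 and shHDAC6-2.

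The ratios of replicate 3 moved with base composition over all genes. With shHDAC6-1 the median log2 ratio rose from -2.65 in the 3114 genes lowest in GC (29.2 to 41.3%) to 1.31 in the 3114 highest, and with shHDAC6-2 from -2.67 to 1.17. In replicates 1 and 2 it ran downwards, the furthest in shHDAC6-1 replicate 2, from 0.26 to -0.49. CXCL8 (33.4% GC) and CCL20 (35.5%) lie in the range of the lowest, and CCL5 (53.3%) and CXCL16 (56.0%) among the higher ones. With the trends over GC and length removed, a step added after seeing the data, CXCL8 was 42.8-fold and 24.5-fold above shCtrl, CCL20 27.6-fold and 12.8-fold, CCL5 17.3-fold and 8.43-fold, CXCL3 10.7-fold and 3.82-fold, and CXCL16 2.27-fold and 1.54-fold, while CCL2 was at ratios of 0.449 and 0.758. The direction of no member changed, but the order of the members did. In replicates 1 and 2, removing the same trends left the calls of CXCL8 and CXCL2 and lost those of CXCL16 (-0.41, edgeR adjusted p = 0.0779) and CCL5 (-0.50, 0.0618) with shHDAC6-1 and of CXCL16 (-0.39, 0.096) with shHDAC6-2. Of the 11 leukocyte markers, CD68 was at 342 and 262 CPM in replicate 3 of shHDAC6-1 and shHDAC6-2 against 87.4 CPM in shCtrl replicate 3, out of sums of 344, 263 and 88.4 CPM, and PTPRC, which encodes CD45, was at 0 with both hairpins. The part of CD68-expressing cells in the result was not tested.

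**Figure D4:**
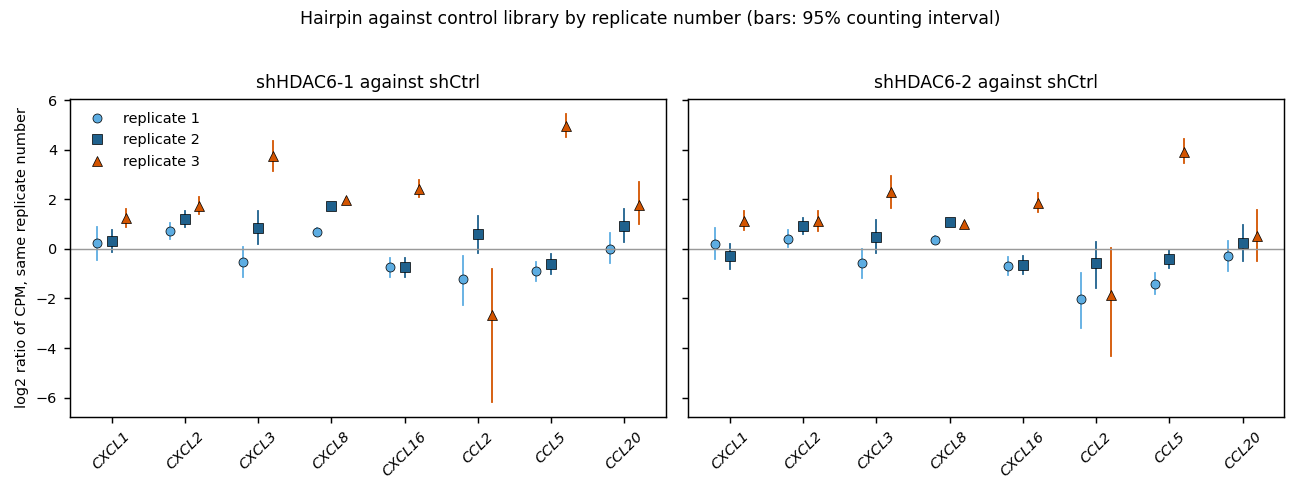
Ratio of each hairpin library to the shCtrl library of the same replicate number for 8 members, as a log2 ratio of CPM on the vertical axis, with replicates 1, 2 and 3 as separate points and 95% counting intervals as bars. CXCL8 and CXCL2 lie above 0 in all 3 replicates, while CCL5 and CXCL16 lie below 0 in replicates 1 and 2 and above 0 in replicate 3.

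The change at the chemokine cluster of chromosome 4 was uneven along the region. Within 500 kb of the span of the 6 members there were 19 symbols. With Nexturastat A the called genes were AREG, which encodes the EGF-receptor ligand amphiregulin (log2 fold change 4.19 ± 0.50, edgeR adjusted p = 0.00705), AFP (alpha-fetoprotein; 2.87, 0.0102), CXCL8, RASSF6 (1.55, 0.00409), CXCL1, MTHFD2L (0.70, 0.0305) and ANKRD17 (-0.42, 0.0421). Between them EREG (0.24), PF4 (0.25) and EPGN (-0.72) did not pass the test. AFP, at 38 and 46 counts against 4 and 7 in Ctrl, passed the low-count filter only through the treated libraries. With the hairpins in replicates 1 and 2 the called genes of the region were CXCL8 and CXCL2 with either hairpin, and ANKRD17 (-0.38, edgeR adjusted p = 0.0432) with shHDAC6-1.

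**Figure D5:**
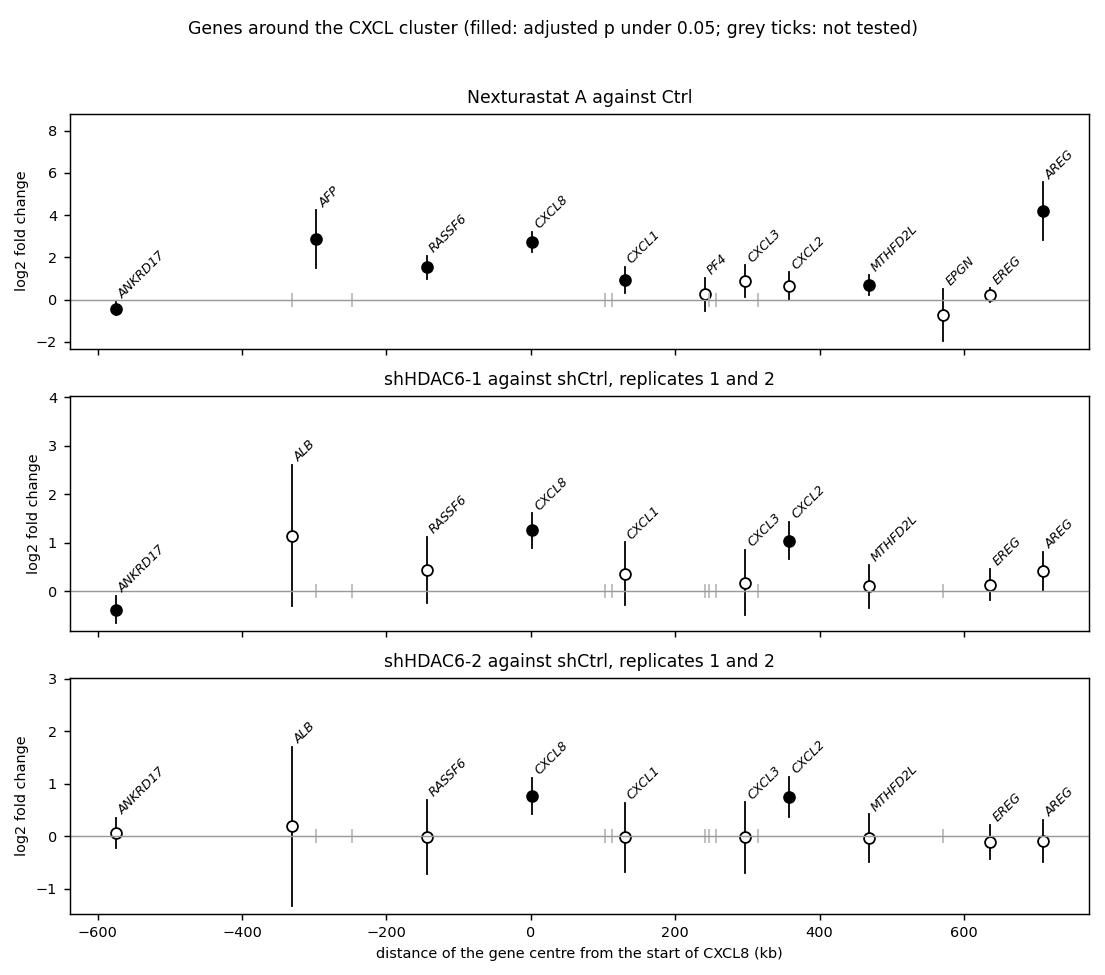
Log2 fold changes of the genes around the chromosome 4 chemokine cluster, placed on the horizontal axis by the distance of their centre from the start of CXCL8 in kb, with 95% confidence intervals as bars, filled points for called genes and grey ticks for genes not tested, for Nexturastat A and for each hairpin in replicates 1 and 2. With Nexturastat A the highest points are AREG (4.19), AFP (2.87) and CXCL8 (2.72). Between CXCL8 and AREG, CXCL1 (0.93) and MTHFD2L (0.70) were called and the other tested genes were not.

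Other chemokines, the receptors and the pathway were read from lists, whose counts stand against 21.1% of all genes rising and 15.5% falling with Nexturastat A, 15.3% and 15.2% with shHDAC6-1, and 14.4% and 13.2% with shHDAC6-2. Of 38 other chemokine ligands, 4 could be tested with Nexturastat A and 2 rose, CCL26, the eosinophil attractant eotaxin-3 (log2 fold change 2.99 ± 0.37, edgeR adjusted p = 0.00238), and CCL28 (1.12 ± 0.27, 0.0187). With the hairpins 8 could be tested and 2 fell, the interferon-induced CXCR3 ligands CXCL10 (-2.05 and -2.23, edgeR adjusted p = 0.000118 and 4.86e-05) and CXCL11 (-0.97 and -1.75, 0.0116 and 9.15e-05). The list's median was 0.82 with Nexturastat A and -0.53 and -0.31 with the hairpins, against 0.03, -0.02 and 0 over all genes. Of the receptors, 5 of 10 tested rose with Nexturastat A: CCR3 (76 and 61 counts against none in Ctrl), CXCR1, the receptor of CXCL8 (28 and 10 counts against none), CCR1 (2.33), the scavenging receptor ACKR2 (2.08) and CCRL2 (0.69). CCR3, CXCR1 and ACKR2 (5 and 7 counts in Ctrl) passed the low-count filter only through the treated libraries. The 5 of 10 is therefore partly fixed by that filter. With shHDAC6-1 ACKR2 fell (-1.23) and with shHDAC6-2 none of 12 receptors was called.

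The NF-kB list (21 genes, all tested) held genes called in both directions with Nexturastat A and with each hairpin, 11 called against 36.6% of all genes with Nexturastat A and 7 against 30.5% and 27.6% with the hairpins. With Nexturastat A 7 rose and 4 fell, among them BIRC3, an inhibitor of apoptosis (2.87), TNFAIP3, a negative feedback regulator (1.59), RELB and NFKBIE (1.08 each) and NFKB1 (-1.24). With each hairpin 3 rose and 4 fell: BIRC3 (1.13 with shHDAC6-1 and 0.83 with shHDAC6-2), TNIP1 (0.80 and 1.00) and NFKBIZ (0.57 and 0.62) rose, and RELB (-0.76 and -0.78), IKBKE (-0.82 and -0.64), IKBKB (-0.69 and -0.48) and NFKB2 (-0.50 and -0.40) fell. The list's median was 0.04 with Nexturastat A, and -0.01 and 0.02 with the hairpins. RELB thus rose with Nexturastat A and fell with the hairpins, and whether these effects differ was not tested. None of the 21 was called with HPOB or Tubastatin A.

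Among 18 tested cytokines and receptors IL1A, which encodes interleukin 1 alpha, an inducer of CXCL8, rose in 4 of the 5 comparisons. It was at 3.21 and 2.86 CPM with Nexturastat A against 1.26 and 0.975 CPM (log2 fold change 1.35, edgeR adjusted p = 0.0149). With HPOB it was at 5.11, 6.67 and 8.23 CPM against 1.3, 1.61 and 1.95 CPM in DMSO (2.04 ± 0.25, edgeR adjusted p = 0.0147) and so was another of the 4 genes called there. With Tubastatin A it was at 4.25, 5.53 and 3.35 CPM, above every DMSO library but not called (1.43, 0.446). With the hairpins in replicates 1 and 2 it was at 1.71 and 1.34 CPM and at 0.881 and 1.44 CPM against 0.19 and 0.0329 CPM (3.88, edgeR adjusted p = 1.48e-05, and 3.51, 5.54e-05). The control values of IL1A there rest on few counts, and in replicate 3 it was at 0.372 and 0.475 CPM against 0.339 CPM. IL1A passed the low-count filter of the hairpin fit only with the help of the HDAC6 hairpin libraries. Its rises there, and its place in the hairpin counts of rising cytokine genes below, are thus not independent of that filter.

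In all, 7 of the 18 cytokine genes rose and 4 fell with Nexturastat A (median 0.35), the largest changes being TNFRSF1B (12 and 10 counts against 2 and 0), IL32 (2.65), IL36G (2.27) and CSF2 (1.61). TNFRSF1B passed the low-count filter only through the treated libraries, so its place in the count of 7 is not independent of its rise. With shHDAC6-1 6 rose and 2 fell and with shHDAC6-2 6 rose and 3 fell, including CSF2 (1.23 and 1.15), the granulocyte-macrophage colony-stimulating factor, and IL1R1 (0.96 and 1.27), while IL6 (-2.0) fell with the first and TNF (-1.49) with the second. Of 10 genes acting on chemokine mRNA decay, none rose and 4 fell with Nexturastat A, HNRNPD (-0.60), ZFP36L2 (-0.58), MAPK14 (-0.44) and ELAVL1 (-0.40), whereas ELAVL1, which encodes the mRNA-stabilising HuR, rose with the hairpins (0.75 and 0.84). ELAVL1 was the 1 gene of this list that rose with each hairpin, while none fell with shHDAC6-1 and 2 fell with shHDAC6-2. Of 7 proteases that shed or trim chemokines, 4 rose with Nexturastat A, MMP9 (4.68), MMP2 (2.50), DPP4 (1.95) and MMP1 (1.76), and none fell. DPP4 (-0.89 and -0.85) and MMP2 (-0.50 and -0.35) fell with the hairpins. In HPOB and Tubastatin A no gene of these lists other than IL1A was called.

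The genes other than the members whose level ran most like that of CXCL8 over the 22 libraries, among 11202 genes, were CSF2 (Pearson correlation of log2 CPM 0.914), CYSTM1 (0.905), GMPR (0.857), MICA (0.849) and CBR1 (0.843). Among the members the values were 0.845 for CXCL1, 0.718 for CXCL3, 0.596 for CXCL2, 0.461 for CCL2, 0.265 for CXCL16, 0.018 for CCL20 and -0.37 for CCL5. These libraries share experiments, cell stocks and depth, so the values describe this set of libraries only. CSF2 was at 4.02 and 4.06 CPM in Ctrl and 7.59 and 18.7 CPM with Nexturastat A. In the second experiment it was at 7.08, 7.31 and 8.71 CPM in DMSO, 14.0, 20.5 and 25.4 CPM with HPOB and 8.94, 23.2 and 13.3 CPM with Tubastatin A. In the hairpin groups CSF2 was at 2.69, 1.82 and 1.74 CPM in shCtrl, 4.99, 5.0 and 13 CPM with shHDAC6-1 and 4.69, 4.67 and 7.37 CPM with shHDAC6-2. CSF2 was therefore above every control of its own experiment in each treated library. It was picked for its likeness to CXCL8 over these same libraries, so this pattern is not independent of that choice.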

How the data were processed

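Reads of 22 bulk RNA-seq libraries were processed by the authors with Trim Galore 0.6.7, STAR 2.7.9a on GRCh38, featureCounts 2.0.3 and DESeq2 1.30.1, per the submitters' processing notes; annotation and strandedness settings were not given in the sources used here. Deposited values were whole-number counts per gene, as the authors left them, without normalization. Low counts were mostly even (65.7 to 75.0% of counts from 1 to 20), so counting intervals were computed on counts divided by 2 and cover counting error only. Libraries were grouped by their labels.

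CPM was each count divided by the library's total, and levels between genes were divided by transcript length (GENCODE 29, 23899 symbols matched). Genes passing filterByExpr (minimum count 10) were tested with edgeR 4.0.16 (R 4.3.3; TMM, robust quasi-likelihood test, two-sided) within each experiment, with Benjamini-Hochberg adjustment over all genes and a threshold of 0.05; DMSO, HPOB and Tubastatin A were fitted together, as were the 3 hairpin groups in replicates 1 and 2. Differences of effects and of controls came from 1 fit over these groups. Hairpin replicate 3 was given as ratios. Scripts were tested on simulated data. Alternatives were DESeq2 1.42.0, its size factors, no filter, a mean CPM of at least 5, GC and length trends removed, a replicate block, all 9 hairpin libraries and each library left out. Promoters came from RefSeq, were aligned with Biopython 1.88 (Python 3.11.15), and had no entry for CXCL16, CCL2 and CCL5.

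The members and lists were chosen with earlier results of these data known. Named besides the 10 members and HDAC6 were at most 4 called genes a list and comparison, largest first, all genes within 500 kb of the chromosome 4 cluster, and the 5 genes most like CXCL8; genes named outside this rule were chosen after their values were seen.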

Additional observations from a re-analysis of the deposited data

Results flagged for a closer look

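CCL5 moved one way in replicates 1 and 2 of the hairpin experiment and the other way in replicate 3. The log2 ratio of shHDAC6-1 to shCtrl was -0.91 in replicate 1, -0.61 in replicate 2 and 4.97 in replicate 3, and that of shHDAC6-2 to shCtrl was -1.40, -0.41 and 3.93. CXCL16 did the same, at -0.74, -0.72 and 2.43 with shHDAC6-1 and at -0.69, -0.64 and 1.86 with shHDAC6-2. The difference between the replicates was not tested. CDKN2A was at 150 and 152 CPM in shCtrl replicates 1 and 2 and at 0 in shCtrl replicate 3. In replicate 3 of shHDAC6-1 and shHDAC6-2 it was at 7.11 and 24.1 CPM. The part of the differences between these libraries in the result was not tested.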

How the results depend on the processing

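The number of members called was 4 with Nexturastat A, 1 with HPOB, 0 with Tubastatin A and 4 with each hairpin in replicates 1 and 2. With genes at a mean CPM of at least 5, it became 2 with Nexturastat A, 2 with shHDAC6-1 and 2 with shHDAC6-2, 3 between DMSO and Ctrl (7 before), 2 between shCtrl and Ctrl (6) and between shCtrl and DMSO (5), and 1 in each difference of effects (2), since fewer genes were tested. With HPOB it was 2 under DESeq2, without a filter, with GC and length trends removed, with the 2 groups alone, with both libraries low in AXL left out and with the replicate block. With Tubastatin A it was 2 under DESeq2 and 1 with GC and length trends removed. With shHDAC6-1 it was 2 with these trends removed, with or without the replicate block. With all 9 hairpin libraries it was 0 for each hairpin, with or without the replicate block, and the fold changes without the block reversed to 0.83 (CXCL16) and 2.28 (CCL5) for shHDAC6-1 and to 0.44 and 1.35 for shHDAC6-2, and with the block to 0.23 (CXCL16) and 0.49 (CCL5) for shHDAC6-1; replicate 3 has the opposite sign. Replicate numbers were not shown to pair libraries (correlation of same-numbered deviations 0.11 for Nexturastat A, -0.151 to 0.187 for the second experiment, -0.048 to 0.167 for the hairpins). Leaving out 1 library at a time gave 3 to 6 members with Nexturastat A, 0 to 3 with HPOB, 0 with Tubastatin A and between it and HPOB, 2 to 4 with shHDAC6-1, 2 to 5 with shHDAC6-2, 0 to 1 between the hairpins, 5 to 7 between DMSO and Ctrl, 5 to 6 between shCtrl and Ctrl, 5 between shCtrl and DMSO and 1 to 3 in each difference of effects. Over all genes, calls with Nexturastat A numbered 6112, 3586 at the CPM minimum and 1781 to 8922 with 1 library left out (1781 without Ctrl replicate 1). With HPOB they numbered 4, and 102 under DESeq2, 14 without a filter, 2 at the CPM minimum, 7 with the block, 14 with GC removed, 15 with the 2 groups alone, 20 with both libraries low in AXL left out and 0 to 78 with 1 left out (78 without Tubastatin A replicate 2). With Tubastatin A 18 were called by DESeq2 and 1 with GC removed. With shHDAC6-1 5401 became 3160 to 5999 with 1 library left out, and with shHDAC6-2 4880 became 7442 with GC removed, 7427 with the block added and 3470 to 4931 with 1 left out. Between the hairpins 12 were called without a filter and 1 to 66 with 1 left out. The differences of effects gave 1603 to 3950 calls against HPOB (2990 before) and 1857 to 4262 against Tubastatin A (3258). CXCL5, CXCL6 and, with Nexturastat A, CCL5 lie near the limit of 3 counts.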
